A study of Arabidopsis thaliana with 12 samples.

Results

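Small heat shock proteins are encoded in Arabidopsis thaliana by a family of nuclear genes, of which 10 are described here: HSP17.4 (AT3G46230), HSP17.8 (AT1G07400), HSP18.2 (AT5G59720) and the 2 HSP17.6 genes AT1G59860 and AT1G53540, which encode cytosolic proteins of class I; HSP17.6II (AT5G12020) and HSP17.6A (AT5G12030), of cytosolic class II; and HSP15.7 (AT5G37670), HSP23.6 (AT4G25200) and HSP21 (AT4G27670), whose products go to peroxisomes, mitochondria and plastids. They were taken by identifier from a table of 23893 genes, in which all 10 were found. RNA was sequenced in 12 libraries, 3 from each of 4 genotypes, made from whole seedlings that were 7 days old and had been kept at 21 °C in short days. In h3.3kd (line h3.3kd-1 in the labels) the histone variant H3.3 is knocked down, in h2a.z the variant H2A.Z is mutated, h3.3kd;h2a.z combines the knockdown with the mutation and is termed the double mutant below, and Col is the wild type. Which alleles were used, and how many independent lines stand behind a genotype, the sources used here do not give. The labels name no heat treatment for any genotype.

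Small heat shock proteins form oligomers that bind unfolding proteins without using ATP and hold them until HSP70 and HSP101 refold them. Their genes are nearly silent in unstressed vegetative tissue and are switched on by heat stress transcription factors (HSFs), which bind heat shock elements, alternating GAA and TTC blocks set 2 bases apart; several are also expressed in maturing seeds. In Arabidopsis, nucleosomes with H2A.Z have been linked to low expression of warmth-responsive genes, and H3.3 replaces the canonical histone H3 along transcribed genes. The comparisons ask how these genes differ in the knockdown and in the mutant, and whether the knockdown of H3.3 acts in the same way in the h2a.z mutant.

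Matches to the block pattern of heat shock elements are shown first, because most of these genes hold them. In the 300 bases before the start codon, at least 2 adjoining blocks (GAANNTTC or TTCNNGAA, each of which reads the same on both strands, so that both strands are covered) were present in 9 of the 10 genes, against 22.76% of 27443 nuclear genes. At least 3 adjoining blocks were present in HSP17.4, AT1G53540 and HSP18.2, against 0.747% of all genes. Of 10 other small heat shock protein genes, HSP22 included, 5 held at least 2 blocks in this window and 1 held at least 3. Of 17 other heat response genes, 11 held at least 2 blocks and 4 held at least 3. This window was chosen after a first one, the 250 bases before the annotated transcript start, had been read. In that first window 5 of the 10 genes held at least 2 blocks, against 16.15% of all genes, and HSP15.7 was one of them. Sequences and annotation are those of RefSeq, assembly TAIR10.1, and the blocks are in capitals, 5′ to 3′ on the strand of the gene.
The 4 runs of 3 blocks were these, with HSP17.4 holding 2 of them:
HSP17.4, distal: caacataGAAgcTTCttGAAgccacct
HSP17.4, proximal: gaaacctGAAatTTCaaGAAacttgca
AT1G53540: aacaccaGAAacTTCttGAAagcacct
HSP18.2: aacaaacGAAacTTCctGAAatgccaa
They lie at chr3:16984947-16984973 and chr3:16984866-16984892 (minus strand) for HSP17.4, chr1:19980239-19980265 (plus strand) for AT1G53540 and chr5:24062389-24062415 (plus strand) for HSP18.2. The annotated leader begins downstream of the first 3, whereas that of HSP18.2 includes its run.

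Pairs of related genes carried related stretches, which are shown because these pairs also had the most similar coding sequences.
AT1G59860: tttgcctcatTTCtaGAAgctctggaga
HSP17.8: gacccgtaaaTTCtaGAAgctctggaga
HSP17.6II: accaagacgtTTCtcGAAcaatacggaa
HSP17.6A: atcaagacgtTTCtcGAAcgttagagaa
HSP23.6: cacttctccaGAAcaTTCactcactgac
AT1G59860 (chr1:22031340-22031367, plus strand) and HSP17.8 (chr1:2274984-2275011, plus strand) shared an unbroken run of 18 bases around the blocks, and their coding sequences were 88.1% identical. HSP17.6II (chr5:3883036-3883063, minus strand) and HSP17.6A (chr5:3884843-3884870, minus strand) shared a run of 17 bases, and their coding sequences were 86.1% identical. The class II genes are neighbours on the same strand, 845 bases apart with 0 annotated genes between them. HSP17.4 and AT1G53540 were 85% identical in coding sequence. HSP23.6, at chr4:12916929-12916956 on the plus strand, had a single pair of blocks in its leader. A match of letters is a description of the sequence and was not tested as a binding site. The longest identical stretches within these coding pairs had 43, 33 and 29 bases; whether reads of one copy were counted for the other was not tested.

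**Figure D1:**
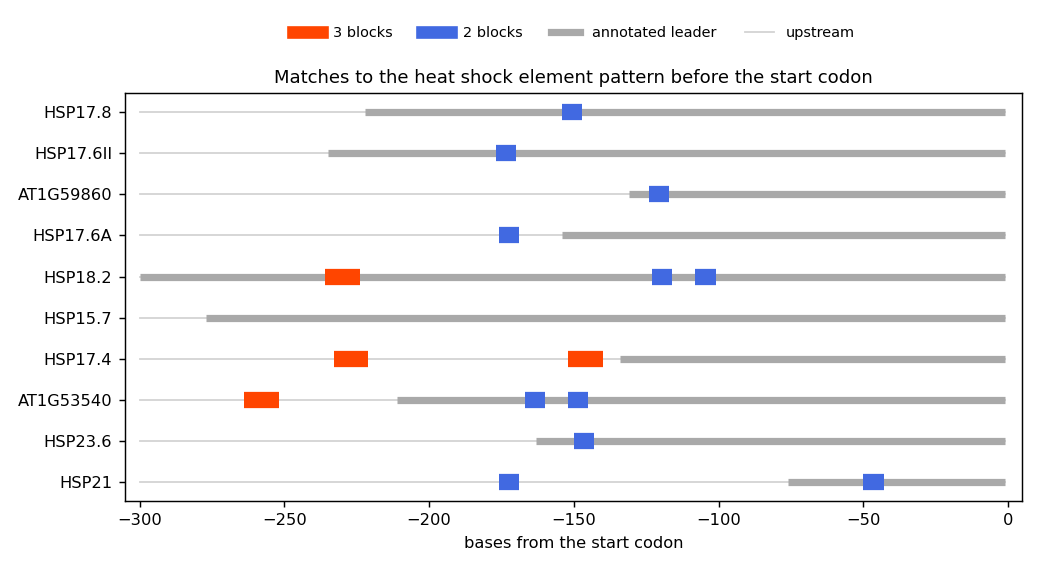
Matches to the heat shock element pattern in the 300 bases before the start codon (horizontal axis, bases from the start codon) for each of the 10 genes (rows); orange marks runs of 3 blocks, blue runs of 2, thick grey the annotated leader and thin grey the sequence upstream of it. HSP17.4, AT1G53540 and HSP18.2 are the genes with runs of 3 blocks, and HSP15.7 has no match in this window.

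Values are TPM, the transcript abundance scaled by gene length and library total that the authors deposited, so that levels of different genes can be set side by side; the length used was the gene span with introns. Depth, as nuclear reads recovered from the table, was 5734531 reads in h2a.z replicate 1 and 21542980 to 33255750 in the other libraries. The labels name the variants H3.3 and H2A.Z but not the genes altered. Transcripts of genes encoding these variants were low for some genes and only partly lowered for others. The H3.3 gene HTR4 averaged 36.2 TPM in h3.3kd and 35.4 TPM in the double mutant, against 386 TPM in Col. The H2A.Z gene HTA11 averaged 2.86 TPM in h2a.z and 1.69 TPM in the double mutant, against 24.4 TPM in Col. The H2A.Z gene HTA9 kept 32.8 TPM in h2a.z and 60.5 TPM in the double mutant, against 161 TPM in Col, and the H3.3 gene HTR5 kept 207 TPM in h3.3kd and 186 TPM in the double mutant, against 250 TPM in Col. HTR8, another H3.3 gene, averaged 12.8 TPM in h3.3kd and 10.2 TPM in the double mutant, against 187 TPM in Col, and HTA8, another H2A.Z gene, had 1 read in h2a.z and 2 reads in the double mutant, against 524 reads in Col, over 3 libraries each. Whether the libraries of a genotype were grown separately is not stated, and p-values then measure only how far these libraries spread. In whole seedlings, fewer cells expressing a gene and less RNA per cell cannot be told apart.

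The summed level of the 10 genes was highest in h2a.z, at 122, 108 and 108 TPM. In h3.3kd it was 15.1, 29.4 and 12.5 TPM, in the double mutant 42.1, 44.8 and 39.2 TPM, and 28.2, 30.5 and 28.0 TPM in Col. The h2a.z libraries therefore lay apart from all others, the double mutant lay between h2a.z and Col without overlapping either, and h3.3kd overlapped Col through replicate 2 alone. HSP17.8 was the most abundant of the 10 genes in every genotype, with 31.8% of the summed mean for h3.3kd, 41.1% for h2a.z, 38.2% for the double mutant and 37.9% for Col. AT1G59860 ranked second in Col, with 18.9% of the sum, and HSP17.6II ranked second in the 3 other genotypes, with 28.4% in h2a.z.

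**Figure D2:**
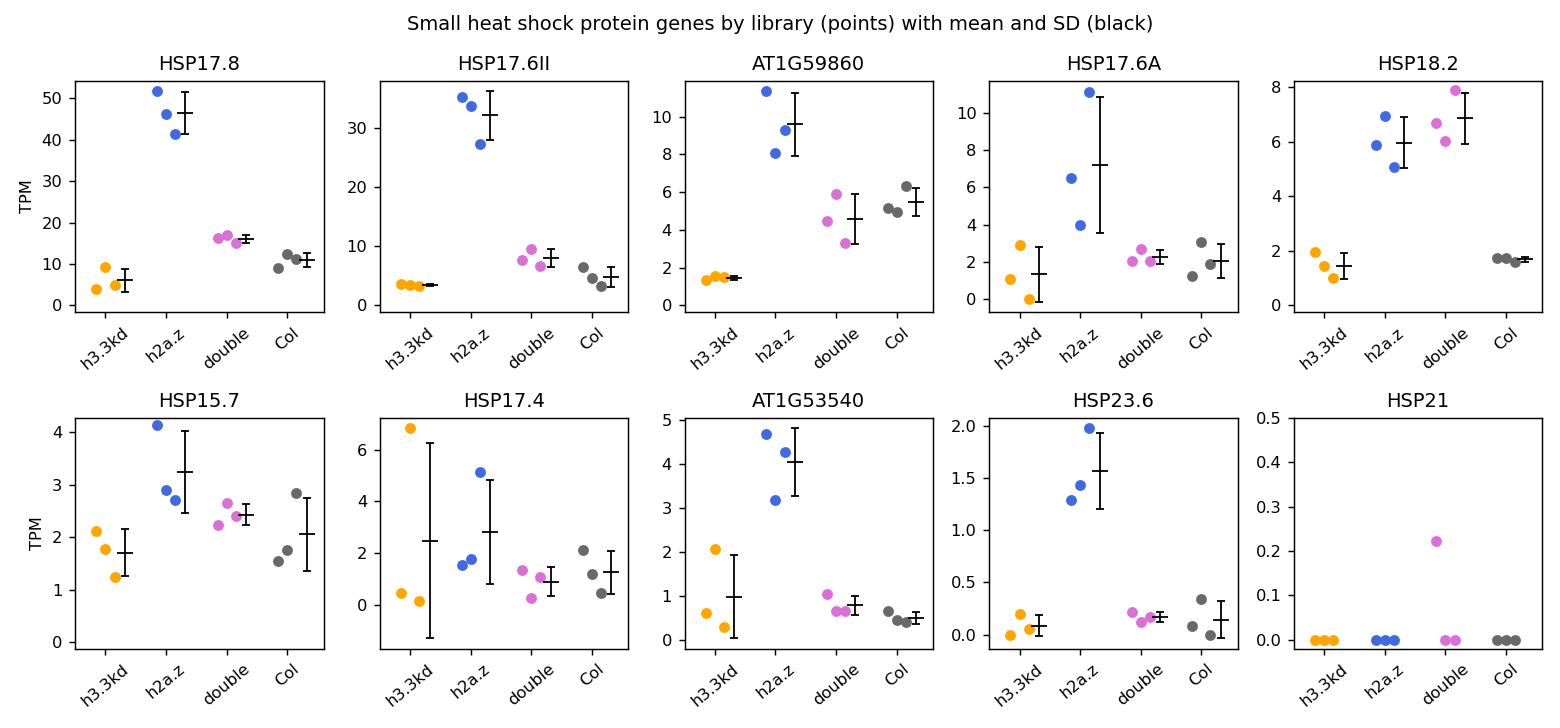
TPM (vertical axis, scaled for each gene) of the 10 genes in each library (points, replicates 1 to 3 from left to right) by genotype, with the mean and SD in black except for HSP21, for which no mean is drawn. HSP17.8 and HSP17.6II reach 41.4 to 51.7 and 27.3 to 35.2 TPM in h2a.z and stay under 17 TPM in all other libraries, whereas HSP18.2 is about as high in the double mutant as in h2a.z.

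In h2a.z, 7 of the 8 genes that could be tested rose relative to Col, by 1.4 to 5.84 times on the TPM + 1 scale. The class II gene HSP17.6II and the class I genes HSP17.8 and AT1G53540 had the largest fold changes; HSP17.6II led on this scale, whereas AT1G53540 led with a pseudocount of 0.1 (2.78 on the log2 scale, against 2.77 for HSP17.6II) and in a voom fit of the recovered reads (2.75, against 2.66). A gene was tested where its mean over all libraries was at least 1 TPM, which left out HSP21 and HSP23.6. AT1G53540 passed only through h2a.z, where it averaged 4.04 TPM, against 0.759 TPM over the other genotypes, so its tests rest on a gene let in by the genotype in which it is high; without it the count in h2a.z was 6 of 7. A gene was called at a Benjamini-Hochberg adjusted p below 0.05 in limma on log2(TPM + 1). Among all 18851 genes tested, 28.9% were called higher and 18.3% lower in h2a.z than in Col, and 0 of the 8 were called lower. The median log2 fold change was 1.37 over the 8 genes and 0.06 over all genes tested.

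Among the class I genes, HSP17.8 had 51.7, 46.2 and 41.4 TPM in the h2a.z libraries, against 9.14, 12.4 and 11.3 TPM in Col. All h2a.z libraries were higher than all Col libraries, and the log2 fold change was 1.99 (SE 0.19, adjusted p = 1.26e-06 in limma). AT1G53540 had 4.67, 3.18 and 4.27 TPM in h2a.z, against 0.661, 0.452 and 0.405 TPM in Col, where it was close to silence. Its groups did not overlap, and it rose by 1.73 on the log2 scale (SE 0.25, limma adjusted p = 5.24e-05, or 0.000176 in the fit without a filter, in which its inclusion does not depend on h2a.z). HSP18.2, whose promoter is widely used as a heat-inducible promoter, had 5.87, 6.95 and 5.08 TPM in h2a.z, against 1.73, 1.75 and 1.59 TPM in Col. That rise of 1.37 (SE 0.15, limma adjusted p = 4.35e-06) again separated the groups completely.

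AT1G59860 moved least among the class I genes that were called. It had 11.38, 8.08 and 9.29 TPM in h2a.z, against 5.14, 4.93 and 6.33 TPM in Col, without overlap, and a log2 fold change of 0.71 (SE 0.16, limma adjusted p = 0.00236). Its close relative HSP17.8 had the larger change although both share most of their coding sequence. HSP17.4 was not called: it had 1.53, 1.79 and 5.12 TPM in h2a.z, against 2.12, 1.19 and 0.486 TPM in Col, groups that overlap, with a log2 difference of 0.70 (SE 0.56, limma adjusted p = 0.324) whose 95% interval ran from -0.49 to 1.88. HSP17.4 is also uncertain because annotated genes of the opposite strand, AT3G07365 and AT3G46220, overlap it by 453 and 60 bases and whether counting used strand is not given in the labels.

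Of the class II genes, HSP17.6II had 35.2, 33.7 and 27.3 TPM in h2a.z, against 6.54, 4.62 and 3.21 TPM in Col. The lowest h2a.z library was far above the highest Col library, and the log2 fold change was 2.55 (SE 0.18, limma adjusted p = 3.45e-08). Its neighbour HSP17.6A had 6.51, 3.96 and 11.2 TPM in h2a.z, against 1.24, 3.04 and 1.86 TPM in Col. These groups did not overlap either, but the h2a.z libraries spread widely, and the rise of 1.38 (SE 0.40, limma adjusted p = 0.0103) depended on single libraries, with an adjusted p of 0.0536 without h2a.z replicate 3 and 0.0505 without Col replicate 1, and of 0.11 with a pseudocount of 0.1.

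The genes for organelle proteins include both that the filter left out. HSP15.7 had 4.13, 2.90 and 2.70 TPM in h2a.z, against 1.55, 1.76 and 2.84 TPM in Col, so that the highest Col library exceeded the lowest h2a.z library. Its rise of 0.48 (SE 0.18, limma adjusted p = 0.0366) was lost in several alternatives, with an adjusted p of 0.149 without h2a.z replicate 1, 0.148 without Col replicate 1, 0.115 without Col replicate 2, 0.0761 with TPM rescaled between libraries, 0.0543 with the replicate number as a block, 0.0593 with only the groups compared and 0.217 in a voom fit of the recovered reads.

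HSP23.6 was almost silent outside h2a.z. It had 1.29, 1.43 and 1.98 TPM in h2a.z, which stand for 4, 19 and 25 reads, and 0.0838, 0.343 and 0 TPM in Col, which stand for 1, 5 and 0 reads. The groups did not overlap, and in the fit without a filter on low values, in which 8 of 10 members and 25.5% of all genes were called higher, its log2 fold change was 1.17 (SE 0.12, limma adjusted p = 1.38e-05). HSP21, the plastid protein, was listed at 0 in all 12 libraries but 1, double mutant replicate 1, where it had 0.222 TPM from 3 reads. A count of 0 allows up to 3 reads, which stand for 0.169 to 0.262 TPM of HSP21 in the deeper libraries and 1.0 TPM in h2a.z replicate 1, for counting error only.

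**Figure D3:**
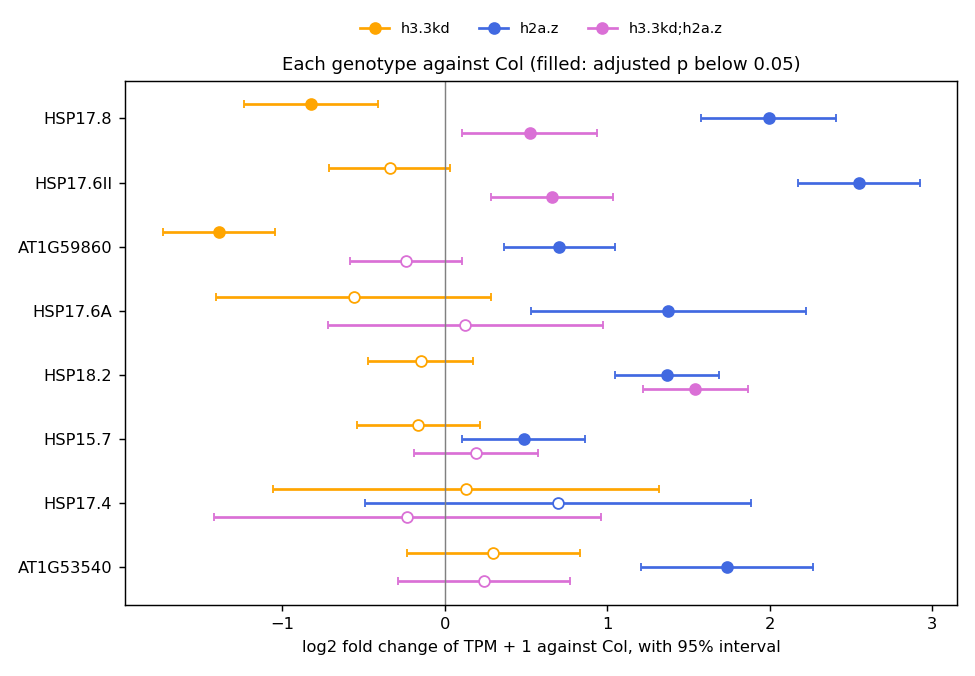
Log2 fold change of TPM + 1 (horizontal axis) in h3.3kd, h2a.z and the double mutant, each against Col, for the 8 genes tested (rows), with 95% intervals; filled points have an adjusted p below 0.05. The h2a.z points lie to the right of 0 for all 8 genes, from 0.48 to 2.55, and HSP18.2 is the gene whose double mutant point, at 1.54, is not left of its h2a.z point, at 1.37.

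In h3.3kd, 2 of the 8 genes fell relative to Col and 0 rose, against 26.7% of all genes tested called lower and 9.12% called higher. The count of 2 is near the share over all genes called lower. The genes that fell were HSP17.8 and AT1G59860, and whether reads of one were counted for the other was not tested. AT1G59860 had 1.34, 1.54 and 1.49 TPM in h3.3kd, against 5.14, 4.93 and 6.33 TPM in Col, which is a separation without overlap. It fell by 1.39 on the log2 scale (SE 0.16, limma adjusted p = 1.36e-05). HSP17.8 had 3.95, 9.22 and 4.97 TPM in h3.3kd and 9.14, 12.4 and 11.3 TPM in Col; h3.3kd replicate 2 just overlapped the lowest Col library, and the log2 fold change was -0.82 (SE 0.19, limma adjusted p = 0.00442). The share of h3.3kd calls that were higher, over all genes, was 25.4% and became 50.9% once TPM were rescaled between libraries, which moved the median of all genes from -0.11 to 0.0021; the corresponding share in h2a.z was 61.2% and became 49.0%. After rescaling, HSP17.8 and AT1G59860 were still the 2 genes called lower in h3.3kd.

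The other genes differed little between h3.3kd and Col or varied widely among the h3.3kd libraries. HSP17.6II had 3.61, 3.43 and 3.3 TPM in h3.3kd, within the range of its Col libraries, with a log2 difference of -0.34 (95% interval -0.71 to 0.03). It was called lower without Col replicate 3, at -0.55 (limma adjusted p = 0.0181). HSP18.2 had 1.94, 1.43 and 0.991 TPM in h3.3kd, a range that includes all Col libraries (log2 difference -0.15, 95% interval -0.47 to 0.17), and HSP15.7 had 2.11, 1.77 and 1.24 TPM (log2 difference -0.16, 95% interval -0.54 to 0.22). HSP23.6 had 0, 3 and 1 reads in h3.3kd and could not be told from Col at this depth.

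One h3.3kd library stood apart in several members. In h3.3kd replicate 2, HSP17.4 reached 6.82 TPM, against 0.452 and 0.172 TPM in replicates 1 and 3, and AT1G53540 reached 2.07 TPM, against 0.602 and 0.287 TPM. HSP17.6A likewise had 2.90 TPM in that library, against 1.08 and 0 TPM in the others. These genes were not called in h3.3kd against Col, with log2 differences of 0.13 (SE 0.56) for HSP17.4, 0.30 (SE 0.25) for AT1G53540 and -0.56 (SE 0.40) for HSP17.6A. Without replicate 2 the differences were -0.73 (limma adjusted p = 0.167) for HSP17.4, -0.07 (limma adjusted p = 0.825) for AT1G53540 and -1.04 (limma adjusted p = 0.043) for HSP17.6A.

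The double mutant kept a raised level in 3 of the 8 genes relative to Col and was lower in 0, against 20.3% of all genes called higher and 30.7% called lower. With rescaled TPM the count of members was the same, while the higher share of all calls became 50.6%, against 39.8% as deposited. HSP18.2 was the clearest of them, with 6.67, 6.02 and 7.88 TPM, against 1.73, 1.75 and 1.59 TPM in Col, and it rose by 1.54 (SE 0.15, limma adjusted p = 1.03e-06). HSP17.6II had 7.70, 9.61 and 6.59 TPM in the double mutant, narrowly above the highest Col library, and rose by 0.66 (SE 0.18, limma adjusted p = 0.00591). HSP17.8 had 16.2, 16.9 and 15.1 TPM, all above Col. Its rise of 0.52 (SE 0.19, limma adjusted p = 0.0359) was not called in 7 of the 21 alternatives, with adjusted p-values of 0.056 to 0.142: without double mutant replicate 1, 2 or 3, without Col replicate 1 or 3, without a filter on low values and without a trend of the variance with the mean.

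Among the 5 genes not called, AT1G59860 had 4.48, 5.92 and 3.31 TPM in the double mutant, overlapping Col, with a log2 difference of -0.24 (95% interval -0.58 to 0.11); without double mutant replicate 2 it was called lower, at -0.41 (limma adjusted p = 0.0452). AT1G53540 had 1.03, 0.654 and 0.667 TPM and HSP17.6A had 2.02, 2.67 and 2.04 TPM, with log2 differences from Col of 0.24 (95% interval -0.29 to 0.77) and 0.13 (95% interval -0.72 to 0.97). HSP15.7 had 2.24, 2.65 and 2.40 TPM, inside its Col range, and HSP17.4 had 1.36, 0.294 and 1.07 TPM. HSP23.6 was back near silence, with 3, 2 and 2 reads. The comparisons with Col share the Col libraries, so their values stand side by side and are not independent of each other.

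Set directly against h2a.z, the double mutant was lower in 5 of the 8 genes and higher in 0, against 34.3% of all genes called lower and 14.2% called higher. With rescaled TPM the members' count was again the same, while the higher share of all calls became 52.8%, against 29.2% as deposited, and the median of all genes became 0.02, against -0.12. HSP17.6II fell by 1.89 on the log2 scale (SE 0.18, limma adjusted p = 7.71e-07), to a mean of 7.97 ± 1.53 TPM in the double mutant, against 32.1 ± 4.16 TPM in h2a.z (SD, n = 3 each). AT1G53540, which passed the filter only through h2a.z, fell by 1.49 (SE 0.25, limma adjusted p = 0.000194, or 0.000524 without a filter); it fell by 2.23 with a pseudocount of 0.1 and by 2.08 by voom, more than HSP17.6II, which fell by 2.0 and 1.79. Without it, 4 of 7 genes were lower. HSP17.8 fell by 1.47 (SE 0.19, limma adjusted p = 2.50e-05) and AT1G59860 by 0.94 (SE 0.16, limma adjusted p = 0.000246). In each of these 4 genes all double mutant libraries were below all h2a.z libraries. HSP17.6A fell by 1.25 (SE 0.40, limma adjusted p = 0.0172), a call that was lost without h2a.z replicate 3 (adjusted p = 0.0848) or double mutant replicate 3 (adjusted p = 0.0512), with a pseudocount of 0.1 (adjusted p = 0.151) and in a fit of the recovered reads (adjusted p = 0.062). HSP23.6 was lower by the fit without a filter, with a log2 fold change of -1.13 (SE 0.12, limma adjusted p = 1.98e-05).

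HSP18.2 did not follow the other class I genes. Its mean was 6.86 ± 0.944 TPM in the double mutant, against 5.97 ± 0.941 TPM in h2a.z (SD, n = 3 each), with overlapping libraries, and the log2 difference was 0.18 with a 95% interval of -0.15 to 0.50. That interval leaves out a fall of the size seen in the 5 genes that were called. HSP18.2 made up 16.3% of the summed mean of the 10 genes in the double mutant, against 7.65% for h3.3kd, 5.28% for h2a.z and 5.84% for Col. HSP15.7 (log2 difference -0.29, 95% interval -0.67 to 0.09) and HSP17.4 (-0.93, 95% interval -2.11 to 0.26) were not called, although the libraries of the double mutant were below all those of h2a.z in both; HSP17.4 was called without h3.3kd replicate 2, a library of neither group, with the same log2 difference (limma adjusted p = 0.0372).

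Against h3.3kd, the double mutant was higher in 4 of the 8 genes and lower in 0, against 20.9% of all genes called higher and 13.8% called lower. HSP18.2 rose by 1.69 (SE 0.15, limma adjusted p = 1.06e-06), HSP17.8 by 1.34 (SE 0.19, limma adjusted p = 9.02e-05), AT1G59860 by 1.15 (SE 0.16, limma adjusted p = 6.74e-05) and HSP17.6II by 1.0 (SE 0.18, limma adjusted p = 0.000476), each without overlap of the libraries. HSP17.6A was not called (0.69, SE 0.40, limma adjusted p = 0.198), but it was without h3.3kd replicate 2 (1.17, limma adjusted p = 0.0248). AT1G53540, which rose in h2a.z against Col, differed by -0.06 (95% interval -0.59 to 0.47) between the double mutant and h3.3kd.

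Whether the knockdown acted differently in the h2a.z mutant was tested as an interaction, the change from h2a.z to the double mutant less the change from Col to h3.3kd. It was called in 2 of the 8 genes, both lower, and in 0 higher, against 10.1% of all genes called lower and 7.39% called higher. The H2A.Z genes also differed between h2a.z and the double mutant. HTA9 had 32.8 TPM in h2a.z and 60.5 TPM in the double mutant, whereas HTA11 had 2.86 and 1.69 TPM. The part of these differences in the members' values was not tested. For AT1G53540 the log2 fold change on knockdown was -1.49 within the h2a.z mutant, against 0.30 within the wild type, an interaction of -1.79 (SE 0.35, limma adjusted p = 0.00303, or 0.00605 without a filter). The value within the wild type was -0.07 without h3.3kd replicate 2. The Col mean of AT1G53540, 0.506 TPM from 15 reads, left little room for a fall on knockdown in the wild type. Without this gene, which the h2a.z libraries alone carried past the filter, 1 of 7 was called. For HSP17.6II the log2 fold change on knockdown was -1.89 within the h2a.z mutant, against -0.34 within the wild type, an interaction of -1.55 (SE 0.25, limma adjusted p = 0.000709). HSP23.6 gave -1.06 (SE 0.17, limma adjusted p = 0.00199) in the fit without a filter. With 1, 5 and 0 reads in the Col libraries, it could hardly fall on knockdown in the wild type. That value therefore cannot tell a different effect of the knockdown from this floor.

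For HSP17.8 and AT1G59860, which fell on knockdown in both backgrounds, the interaction was not called. It was -0.65 (95% interval -1.24 to -0.06, adjusted p = 0.118) for HSP17.8, which was called without h3.3kd replicate 1 (-0.87, limma adjusted p = 0.0303), and 0.45 (95% interval -0.04 to 0.94, adjusted p = 0.191) for AT1G59860. In HSP18.2 it was 0.32 (95% interval -0.13 to 0.78), and in HSP15.7 -0.13 (95% interval -0.67 to 0.41). HSP17.6A and HSP17.4 had intervals too wide to read, from -1.89 to 0.51 and from -2.73 to 0.62.

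**Figure D4:**
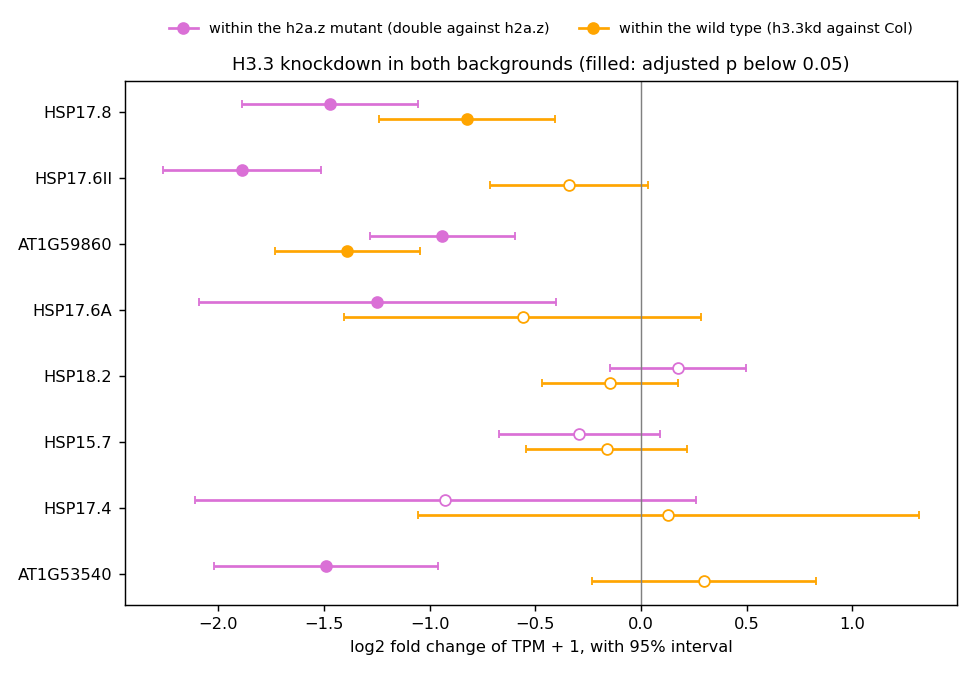
Log2 fold change of TPM + 1 (horizontal axis) on knockdown of H3.3 within the h2a.z mutant (double mutant against h2a.z) and within the wild type (h3.3kd against Col), with 95% intervals, for the 8 genes tested (rows); filled points have an adjusted p below 0.05. The intervals of HSP17.6II and AT1G53540 lie apart between the backgrounds, HSP17.8 and AT1G59860 are lower in both, and HSP18.2 lies near 0 in both.

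Seed storage and maturation genes, read because small heat shock proteins are also made in seeds, varied between libraries. The summed level of 13 of them was 109 to 141 TPM in h3.3kd, 24.8, 25.3 and 398 TPM in h2a.z, 141 to 404 TPM in the double mutant, against 46.6 to 72.0 TPM in Col, and 12 of the 13 were above 0 in every library. Of the 12 that could be tested, 2 were called higher and 0 lower in h3.3kd than in Col, 1 was called higher and 2 lower in h2a.z than in Col, and 7 were higher and 1 lower in the double mutant than in Col. Of all genes, 9.12% were called higher and 26.7% lower in h3.3kd. The shares were 28.9% and 18.3% in h2a.z, and 20.3% and 30.7% in the double mutant. HSP17.4, HSP17.6A and HSP23.6 had their highest h2a.z values in replicate 3, the library with the high seed sum. HSP17.8, HSP17.6II, HSP18.2 and HSP15.7 had their lowest h2a.z values there, and the summed level of the 10 genes was 108 TPM both there and in replicate 2. In h3.3kd replicate 2, where HSP17.4 was highest, the seed sum was the lowest of that genotype. Without h3.3kd replicate 2 and h2a.z replicate 3 together, an alternative chosen after the data were seen, 7 genes were still called higher in h2a.z, 5 lower in the double mutant than in h2a.z, and 2 lower in the interaction, while 3 rather than 2 were lower in h3.3kd. The part of seed transcripts in the values of the members was not tested. Green shoot and root markers, 4 and 5 genes, were above 0 in every library, and their sums moved with genotype. The green shoot sum was 45776 to 48257 TPM in h3.3kd, 30176 to 35928 TPM in h2a.z and 41247 to 47191 TPM for the double mutant, against 34397 to 38206 TPM in Col. In h3.3kd all 4 markers lay above Col without overlap. In h2a.z CAB3 and LHCB1.1 lay below Col, and RBCS1A and LHCB2.2 overlapped it. In the double mutant RBCS1A and CAB3 lay above Col, at 1.23 and 1.53 times its mean. LHCB1.1 and LHCB2.2 were at 0.84 and 0.81 times Col there, with overlap. The root sum was 1082 to 1172 TPM in h3.3kd, 929 to 1047 TPM in h2a.z and 902 to 936 TPM for the double mutant. In Col it was 1455 to 1558 TPM, without overlap with any of them. PYK10 made up most of this sum, with a mean of 1333 TPM in Col. By gene, 2 root markers lay above and 2 below all Col libraries in h3.3kd. In h2a.z 2 lay above and 1 below, and in the double mutant 1 above and 1 below. SCR was above Col in each, at 1.12, 1.32 and 1.48 times its mean. The part of the green shoot and root markers in the members' values was not tested.

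**Figure D5:**
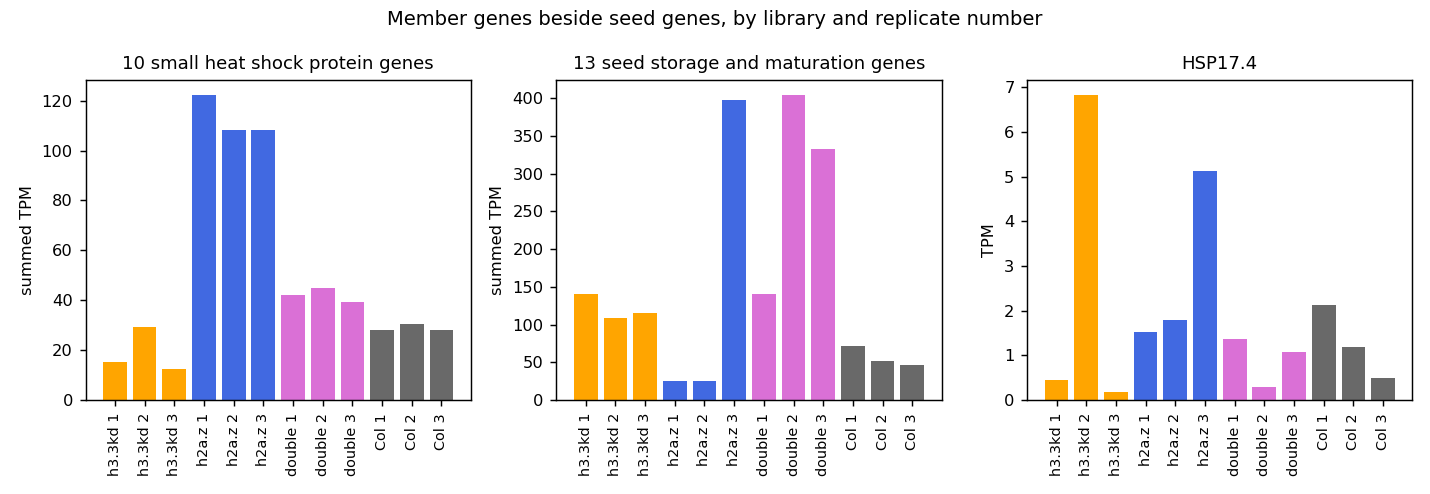
Summed TPM of the 10 small heat shock protein genes (left), summed TPM of the 13 seed genes (middle) and TPM of HSP17.4 (right) in each library (bars, by genotype and replicate number). In h2a.z replicates 1, 2 and 3 the small heat shock protein sums are 122, 108 and 108 TPM, the seed sums 24.8, 25.3 and 398 TPM and HSP17.4 1.53, 1.79 and 5.12 TPM.

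Another 9 genes annotated as small heat shock or HSP20-like proteins were in the table and serve as a comparison, with 8 of them tested. In h2a.z against Col 6 were called higher and 1 lower, against 28.9% and 18.3% of all genes tested, with a median log2 fold change of 1.33. AT5G47600 changed most, with 39.9, 27.3 and 38.2 TPM in h2a.z, against 1.39, 1.14 and 1.27 TPM in Col, and AT5G51440 had 72.0, 69.9 and 80.5 TPM, against 9.58, 9.60 and 8.29 TPM in Col. In h3.3kd 6 of the 8 were called lower and 0 higher, or 4 lower with rescaled TPM. Of all genes, 26.7% were lower and 9.12% higher there as deposited. In the double mutant against h2a.z 6 were lower and 0 higher, or 5 lower and 1 higher with rescaled TPM. Of all genes, 34.3% were lower and 14.2% higher in that comparison as deposited. AT5G54660 was the exception, lower in h2a.z than in Col by 1.02 on the log2 scale (SE 0.09, limma adjusted p = 3.46e-07).

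Lists of heat stress transcription factors and other heat response genes give the setting. Of 19 HSF genes tested, 9 were called higher and 1 lower in h2a.z (8 and 3 with rescaled TPM), against 28.9% and 18.3% of all genes. In h3.3kd 0 were called higher and 5 lower, against 9.12% and 26.7% of all genes. That lower count is near the share over all genes. HSFA2, the factor that sustains small heat shock protein expression after heat, had 33.7, 33.6 and 35.0 TPM in h2a.z, against 12.9, 8.67 and 10.5 TPM in Col, and in h3.3kd it had 2.06, 3.47 and 3.31 TPM. In the double mutant it was at 5.74, 9.16 and 7.11 TPM, overlapping Col, with a log2 fold change of -0.49 against Col (limma adjusted p = 0.0235). Of all genes, 30.7% were called lower in that comparison as deposited. Of 16 other heat response genes tested, 9 were higher and 1 lower in h2a.z, and 0 higher and 10 lower in h3.3kd (1 and 7 with rescaled TPM). The shares over all genes given for the HSF genes apply here too, for TPM as deposited.

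The chaperones that work with small heat shock proteins did not all move alike. HSP70, which refolds the proteins that small heat shock proteins hold, had log2 fold changes against Col of -2.01 for h3.3kd, 1.70 for h2a.z and -0.39 for the double mutant, each called in limma. The double mutant libraries of HSP70 overlapped those of Col. HSP101, the disaggregase, gave -0.91 for h3.3kd, 0.54 for h2a.z and -0.42 for the double mutant, again all called. HSP90.1 resembled HSP18.2: the double mutant had 59.7, 64.3 and 53.7 TPM and h2a.z 53.0, 53.7 and 50.3 TPM, against 23.2, 17.5 and 19.4 TPM in Col, and the log2 difference of 0.17 between the double mutant and h2a.z was not called.

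Genes of other kinds had nearly the same pattern as the typical small heat shock protein gene. The median log2 fold changes of the 8 genes against Col were -0.25 for h3.3kd, 1.37 for h2a.z and 0.22 for h3.3kd;h2a.z. By root mean square difference from those 3 values, over 4 genotypes and 12 libraries, the nearest genes outside the family were AT5G43520, RLK1, TIP2;3, AT3G16510, AT1G29270, AT1G10530, AT1G67330 and OFP12, at distances of 0.093 to 0.131. HSP17.6A, at 0.186, was the nearest of the 8 genes to their own median and AT1G59860, at 0.805, the farthest, with HSP18.2 at 0.768 and HSP17.6II at 0.727. Ranked by this distance among all genes tested, HSP17.6A stood at 37 and AT1G59860 at 8759.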

How the data were processed

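The authors deposited 1 table of TPM values, 1 column per library, each summing to 1000000. Tools named in the submitters' processing notes, with no role given, are HTSeq 0.11.2, DESeq2 1.26.0, fastp 0.20.1 and HISAT2, and the build is TAIR10. Libraries were made with an NEBNext Ultra kit, per the labels' protocols. Multiplied by the RefSeq TAIR10.1 gene span, introns included, 99.98% of the deposited TPM values came out as whole reads within 0.01, in every library for 23723 of 23728 genes. These reads gave the depths and counts above. In the shallow library h2a.z replicate 1, a single read counts 3.85-fold more TPM than in Col replicate 1.

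Differences were tested on log2(TPM + 1), a pseudocount of 1, with limma (version 3.58.1, R 4.3.3) over 18851 genes with a mean of at least 1 TPM, in a model with 4 genotype groups, 12 libraries and 8 residual degrees of freedom, with the variance moderated along its trend with the mean. Tests were two-sided, with Benjamini-Hochberg adjustment over all genes of a contrast and calls below 0.05. Fold changes on this scale understate changes of low genes. Python 3.11.15 and Biopython 1.88 served for tables and sequences.

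The members and all gene lists were chosen with earlier results of these data known. The text names all 10 members, the H3.3 and H2A.Z genes, and HSFA2, HSP101, HSP70 and HSP90.1. It also names called genes with the largest changes of each comparison list, and the 8 genes nearest to the members' median pattern. Alternatives were another pseudocount, no filter, TPM rescaled by median ratios, nuclear genes only, no trend, a replicate block, only the groups compared and leaving out each library; leaving out a pair of libraries and a voom fit of recovered reads were added after the data were seen. The expression of HSP22 was not analysed here.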

Additional observations from a re-analysis of the deposited data

Results flagged for a closer look

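The change on knockdown of H3.3 differed between the h2a.z mutant and the wild type in 2 of the 8 genes, by the test of the difference itself. For AT1G53540 (an HSP17.6 gene of class I) the difference was -1.79 (SE 0.35, limma adjusted p = 0.00303): the double mutant had 1.03, 0.654 and 0.667 TPM, against 4.67, 3.18 and 4.27 TPM in h2a.z, and h3.3kd had 0.602, 2.07 and 0.287 TPM, against 0.661, 0.452 and 0.405 TPM in Col. For HSP17.6II the difference was -1.55 (SE 0.25, limma adjusted p = 0.000709): the double mutant had 7.70, 9.61 and 6.59 TPM, against 35.2, 33.7 and 27.3 TPM in h2a.z, and h3.3kd had 3.61, 3.43 and 3.3 TPM, against 6.54, 4.62 and 3.21 TPM in Col. AT1G53540 passed the filter of 1 TPM only through h2a.z (4.04 TPM, against 0.759 TPM over the other genotypes); without a filter its adjusted p in limma was 0.00605. It has few reads, 25 in the double mutant, 84 in h2a.z, 36 in h3.3kd and 15 in Col over 3 libraries each. Its Col mean of 0.506 TPM left little room for a fall on knockdown in the wild type. The cause of either difference was not tested.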

How the results depend on the processing

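Of 48 member values (8 genes in 6 contrasts), 28 kept their direction and their side of the threshold under every alternative run, of 21; 21 alternative values lost a call and 8 gained one. The number of members called lower in the double mutant against Col was 0 to 1 over the fits that leave out a library. All other counts of members called stayed within 1.5 times of those reported. Directions turned only in values that were not called. For h3.3kd against Col, leaving out a library gave -0.28 to 0.017 for HSP15.7, -0.73 to 0.64 for HSP17.4 and -0.065 to 0.56 for AT1G53540; HSP17.4 was -0.23 with a pseudocount of 0.1 and -0.32 by voom. For the double mutant against Col it gave -0.50 to 0.033 for HSP17.4 and -0.075 to 0.35 for HSP17.6A, and against h3.3kd -0.87 to 0.50 for HSP17.4 and -0.32 to 0.31 for AT1G53540, which was 0.053 with a pseudocount of 0.1 and 0.12 by voom. The interaction of HSP15.7 was -0.31 to 0.013, and that of HSP17.6A 0.63 by voom. Without h3.3kd replicate 2 and h2a.z replicate 3, values were -0.73 (HSP17.4) and -0.065 (AT1G53540) for h3.3kd against Col, 0.50 and 0.31 for the double mutant against h3.3kd, and 0.21 (HSP17.4) and 0.12 (HSP17.6A) for the interaction. The cause was not tested.

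Replicate numbers did not pair the libraries: 18 same-numbered pairs correlated at -0.17 to 0.077 in their deviations from the group means. With the replicate number as a block, HSP15.7 in h2a.z against Col had the same log2 fold change of 0.48 with an adjusted p of 0.0543 in limma, so 6 rather than 7 members were called higher there. The interaction could not be fitted on only the groups compared. HSP21, HSP23.6 and, in single libraries, HSP17.6A, HSP17.4 and AT1G53540 lie near the limit of 3 reads that a count of 0 allows. HSP17.4 had 2 reads in h3.3kd replicate 3, and 3 each in h2a.z replicate 1 and double mutant replicate 2. AT1G53540 had 4 reads each in h3.3kd replicate 3 and Col replicate 3. HSP23.6 lay above that limit in h2a.z replicates 2 and 3, with 19 and 25 reads. The shallowest library is h2a.z replicate 1.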
